A study of Mus musculus with 16 samples.

Results

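The 9 genes described here build the contacts that hold epithelial cells together: Epcam, the cadherins Cdh1 and Cdh16, the catenins Ctnnb1 and Jup, and the desmosome genes Dsp, Dsg2, Dsc2 and Pkp2. They were chosen by symbol, and each was matched to 1 row of a table of 27179 gene identifiers. The table holds RNA sequencing counts from 16 libraries of alveolar type 2 (AT2) cells, the surfactant-making cells of the lung, sorted from 8 mice. Each lung gave a CD44- and a CD44+ fraction, so that 4 groups of 4 libraries were compared. Sorted cells lacked surface CD45, CD31 and CD104, carried EPCAM and high CD200, and were divided last by CD44, a hyaluronan receptor. Groups are named by the prefix of the table's columns: lungs of the R26 prefix and lungs of the OG prefix, each with its CD44- and its CD44+ fraction. The labels list SP-C WT and SP-C Mutant lungs, 4 animals of each, and give all of them the treatment OG TMX. They do not tie a prefix to a genotype, and beyond the mutated gene, Sftpc, they describe neither the mutation, the alleles that drive it nor the animals' age. Reading R26 as SP-C WT and OG as SP-C Mutant is an inference, on which the sign of every OG against R26 difference with respect to genotype rests. The difference between CD44 fractions of one prefix needs no such reading.

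Epithelial cells are joined by adherens junctions and desmosomes. In an adherens junction the extracellular part of E-cadherin, the product of Cdh1, binds the same protein on the neighbouring cell, while its tail binds beta-catenin (Ctnnb1) or plakoglobin (Jup), which link to actin through alpha-catenin. Desmosomes are built alike from desmogleins and desmocollins (Dsg2, Dsc2), plakoglobin, plakophilins (Pkp2) and desmoplakin (Dsp), and are anchored to keratin filaments. Beta-catenin is also the transcriptional effector of canonical Wnt signalling. EPCAM is a surface glycoprotein of most simple epithelia that binds claudin-7, and Cdh16 encodes a cadherin with a short tail that lacks the catenin-binding region of E-cadherin.

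The RefSeq promoter table held entries for 4 of the 9 genes (Epcam, Jup, Dsp and Ctnnb1). Epcam, Jup and Dsp are shown because their levels moved closely together over the libraries, as given below. Each sequence is the 250 bases before the RefSeq transcript start, 5′ to 3′ along the gene's strand, in GRCm38.p6 (mm10). Capitals mark CACCTG or its reverse complement CAGGTG, the E-box bound by SNAI and ZEB repressors of epithelial genes. A second motif, AACNNGTT of the grainyhead-like factors, was searched on both strands and had no match in these 4 genes' windows.
Epcam, chr17:87635729-87635978, plus strand: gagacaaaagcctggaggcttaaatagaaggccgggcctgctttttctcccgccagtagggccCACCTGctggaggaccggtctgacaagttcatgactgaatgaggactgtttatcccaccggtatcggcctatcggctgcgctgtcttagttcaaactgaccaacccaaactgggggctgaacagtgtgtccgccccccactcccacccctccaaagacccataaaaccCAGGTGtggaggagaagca
Jup, chr11:100397791-100398040, minus strand: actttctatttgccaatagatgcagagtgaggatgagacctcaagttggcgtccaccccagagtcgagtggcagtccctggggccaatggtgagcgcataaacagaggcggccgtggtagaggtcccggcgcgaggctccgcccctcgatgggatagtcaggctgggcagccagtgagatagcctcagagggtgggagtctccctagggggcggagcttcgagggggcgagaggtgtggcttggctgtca
Dsp, chr13:38151044-38151293, plus strand: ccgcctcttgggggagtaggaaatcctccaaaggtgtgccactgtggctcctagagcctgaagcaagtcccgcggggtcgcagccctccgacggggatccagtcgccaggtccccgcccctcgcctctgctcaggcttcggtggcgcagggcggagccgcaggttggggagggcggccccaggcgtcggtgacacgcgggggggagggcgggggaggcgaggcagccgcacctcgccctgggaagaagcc
The Epcam window held 2 E-boxes, whose first bases lie 187 and 19 bases before the start, and the Jup, Dsp and Ctnnb1 windows held 0. Of 32851 windows of the same length, 17.2% held CACCTG or CAGGTG and 3.64% held AACNNGTT. A match is a run of letters and no evidence of binding.

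Levels are given as CPM, a gene's counts relative to its library's total, scaled by the trimmed mean of M values (TMM), and differences as log2 fold changes ± SE from edgeR's quasi-likelihood test over all 16 libraries. A gene was called higher or lower at a Benjamini-Hochberg adjusted p under 0.05 over the 15516 genes tested, with no fold minimum. Library totals ran from 9022471 to 21363816 counts. All 9 genes passed the filter on low counts, Dsc2 through its counts in the OG CD44+ libraries. AT2 markers were abundant in every group, with a summed level of 8 genes of 136958 to 161550 CPM in R26 CD44-, 90286 to 130316 in R26 CD44+, 40524 to 43434 in OG CD44- and 19743 to 23930 in OG CD44+ libraries. The 8 genes include Sftpc, the mutated gene. All 8 were called lower in CD44+ than in CD44- cells, with a median log2 fold change of -0.89 in OG and -0.56 in R26. All 8 were also lower in OG than in R26 cells, with medians of -1.08 in CD44- and -1.55 in CD44+ cells. Cd44 itself was at 324 to 334 CPM in R26 CD44- against 386 to 559 in R26 CD44+ libraries, and at 538 to 593 in OG CD44- against 897 to 947 in OG CD44+ libraries, so that the fractions did not overlap within a prefix. With another library as TMM reference, or with upper quartile scaling, the balance of higher and lower calls over all genes moved: 3464 and 4351 in OG CD44+ against CD44- became 4140 and 3097 with upper quartile scaling, 3357 and 2393 in R26 CD44+ against CD44- became 2979 and 4824 with OG CD44- animal 7 as reference, and 1019 and 2806 in the difference between these became 2369 and 1697 with that reference. The median gene shifted at most by 0.15 (log2), in the last of these, so that differences of that size are read with care below. The TMM reference was R26 CD44+ animal 7. Leaving out any of the 8 R26 libraries made OG CD44+ animal 7 the reference, and leaving out an OG library left it as it was. Libraries were therefore also left out with the factors of all 16 libraries kept, a choice made after seeing the data.

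Counted together, in OG CD44+ against OG CD44- cells 6 of the 9 genes rose and 2 fell, where 50.4% of all genes tested were called (22.3% higher and 28.0% lower) and 51.0% had groups that did not overlap. In R26 CD44+ against CD44- cells 1 rose and 3 fell, against 37.1% called (21.6% higher, 15.4% lower) and 28.8% without overlap. Between the CD44- fractions 6 rose in OG and 2 fell, against 69.0% called (39.4% higher, 29.6% lower) and 67.6% without overlap. Between the CD44+ fractions 7 rose and 2 fell, against 69.1% called (34.5% higher, 34.6% lower) and 57.6% without overlap. For the difference between CD44 effects, the effect was higher in OG in 5 genes and lower in 0, against 24.7% called (6.57% higher, 18.1% lower). DESeq2 and limma voom also called 0 lower, and at an unadjusted p under 0.05 edgeR had 1 gene lower, Cdh16. The median log2 fold changes of the 9 genes were 0.21, -0.041, 0.36, 0.70 and 0.23 in this order, and those of all genes tested -0.055, -0.017, 0.12, -0.0068 and -0.096. The number that fell in OG became 1 with upper quartile factors or OG CD44- animal 7 as TMM reference. In R26 5 in place of 3 fell with that reference or without R26 CD44+ animal 2, and for the difference of CD44 effects 3 in place of 5 were higher without OG CD44- animal 6. The shares of members called between the prefixes, 8 and 9 of 9, stand against a background in which most genes were called. Dsc2, which passed the filter through the OG CD44+ libraries, was counted as risen in each pairwise comparison, and in R26 no other gene rose. The comparisons share libraries and are not independent of each other. The 9 genes were chosen with earlier results of these data known, so the shares over all genes are given as description only.

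Compared per kilobase of exon, Ctnnb1 and Cdh1 were the most abundant of the 9 genes and Dsc2 the least. In R26 CD44- cells the order by CPM per kilobase was Ctnnb1 (293 ± 9.96, SD, n = 4), Cdh1 (205 ± 10.2), Epcam (59.5 ± 2.10), Jup (49.3 ± 1.89), Cdh16 (24.2 ± 3.19), Dsp (16.4 ± 0.882), Pkp2 (11.1 ± 0.697), Dsg2 (2.59 ± 0.145) and Dsc2 (0.0312 ± 0.0263). In OG CD44+ cells it was Cdh1 (289 ± 10.6), Ctnnb1 (160.2 ± 2.10), Epcam (106 ± 2.78), Jup (74.4 ± 3.14), Dsp (29.7 ± 1.56), Pkp2 (15.3 ± 1.30), Dsg2 (6.21 ± 0.733), Cdh16 (2.71 ± 0.265) and Dsc2 (0.634 ± 0.147). Cdh1 and Ctnnb1 thus exchanged places, and Cdh16 moved from the fifth place to the eighth. Gene models without the expressed isoform lengths set this scale, so the order between close neighbours is approximate.

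**Figure D1:**
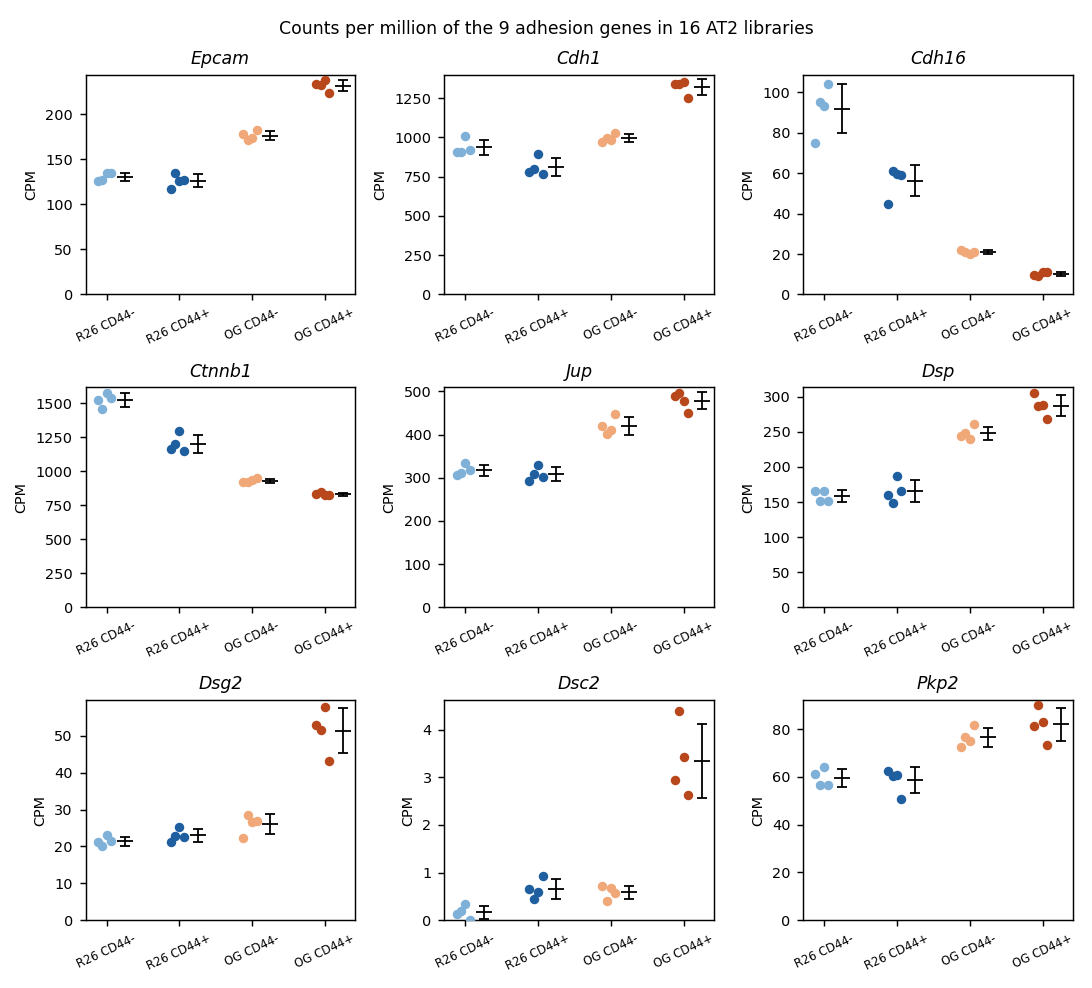
Level of each of the 9 genes in CPM (y axes, from 0) in 16 libraries, by group (x axes); points are libraries, and bars beside them are the mean ± SD of 4. Cdh16 and Ctnnb1 descend from R26 CD44- to OG CD44+. Epcam, Cdh1, Jup, Dsp, Dsg2, Dsc2 and Pkp2 have their highest mean in OG CD44+.

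Epcam (gene 17075, chromosome 17, 87635979 to 87651129 in mm10) was higher in OG than in R26 cells and highest in the OG CD44+ fraction. Libraries are listed here and below in the order R26 animals 8, 7, 2 and 1 and OG animals 7, 6, 5 and 3. Its level was 126, 127, 135 and 134 CPM in R26 CD44- and 118, 135, 126 and 128 CPM in R26 CD44+ libraries, which overlapped. In OG libraries it was 178, 172, 174 and 182 CPM in CD44- and 234, 232, 238 and 224 CPM in CD44+ cells, and all 8 values lay above every R26 value without overlap between the fractions. OG CD44+ cells exceeded OG CD44- cells (log2 fold change 0.39 ± 0.045, adjusted p = 1.57e-07) and R26 CD44+ cells (log2 fold change 0.87 ± 0.046, adjusted p = 3.00e-14), and OG CD44- exceeded R26 CD44- cells (log2 fold change 0.43 ± 0.046, adjusted p = 9.45e-09). Between the R26 fractions the log2 fold change was -0.045 ± 0.047 (adjusted p = 0.481). That last value became -0.14 (adjusted p = 0.0117) with OG CD44- animal 7 as TMM reference. It was also called lower without R26 CD44- animal 8 or 7 or R26 CD44+ animal 7 or 2 (-0.15 to -0.12, adjusted p = 0.0103 to 0.0370), but it was not called without any 1 of the 8 R26 libraries when the factors were kept (-0.078 to -0.011, adjusted p = 0.231 to 0.880). The CD44 difference was larger in OG than in R26 by 0.44 ± 0.065 (adjusted p = 2.17e-05). Since cells were sorted for surface EPCAM in every group, these are levels among cells that had already passed that gate. In sorted bulk RNA, fewer cells of a type and less RNA per cell cannot be told apart.

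Cdh1 (gene 12550, chromosome 8, 106603351 to 106670246 in mm10) moved in opposite directions with CD44 under the prefixes. R26 CD44- libraries held 909.7, 909, 1006 and 920.4 CPM and R26 CD44+ libraries 779, 800.5, 894 and 770.0 CPM, a decrease without overlap of the groups (log2 fold change -0.21 ± 0.052, adjusted p = 0.00289). OG CD44- libraries held 971, 995, 983 and 1029 CPM and OG CD44+ libraries 1340, 1342, 1353 and 1248 CPM, an increase without overlap (log2 fold change 0.41 ± 0.052, adjusted p = 7.47e-07). Inside each animal, CD44+ minus CD44- was -0.26 to -0.17 log2 units in the 4 R26 animals and 0.28 to 0.46 in the 4 OG animals. The 2 differences were themselves different by 0.62 ± 0.074 (adjusted p = 1.35e-06). OG CD44+ cells exceeded R26 CD44+ cells by 0.70 ± 0.052 (adjusted p = 1.98e-11). The CD44- fractions overlapped, at 0.087 ± 0.052 (adjusted p = 0.141). Their sign turned with the scaling, to -0.029 with upper quartile factors and -0.0087 with OG CD44- animal 7 as reference, and the difference was called without a filter on low counts (0.15, adjusted p = 0.0132) and by limma voom (0.091, adjusted p = 0.0191). It also turned negative without R26 CD44- animal 8, 7 or 1 (-0.032 to -0.030, adjusted p = 0.633 to 0.647). With the factors kept it was positive without any 1 of the 8 CD44- libraries (0.070 to 0.12, adjusted p = 0.0480 to 0.289), and called without R26 CD44- animal 2.

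**Figure D2:**
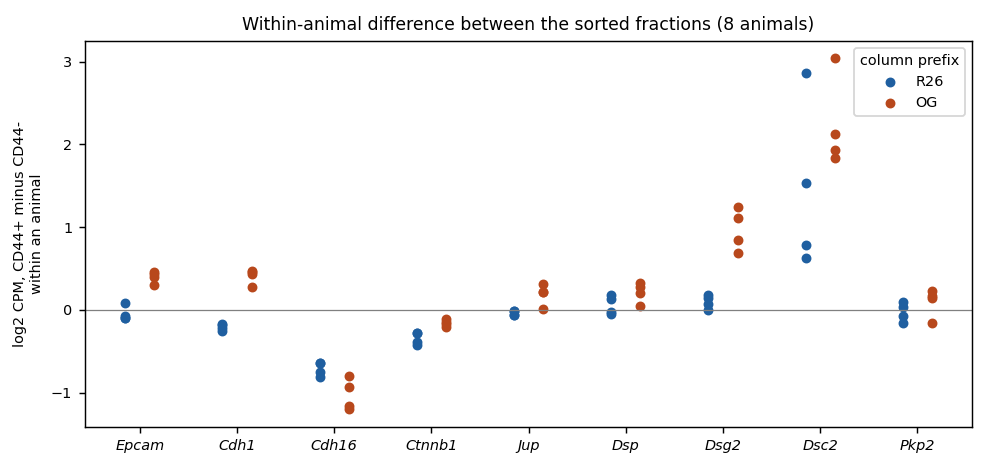
Difference in log2 CPM between the CD44+ and the CD44- library of the same animal (y axis) for each gene (x axis); each point is 1 animal, 4 R26 in blue and 4 OG in orange. Cdh1 points lie below 0 in R26 animals and above 0 in OG animals, and Cdh16 and Ctnnb1 points lie below 0 in all 8.

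Cdh16 (gene 12556, chromosome 8, 104601911 to 104624396 in mm10) was lower in OG than in R26 cells and lower in CD44+ than in CD44- cells, in all 4 comparisons between pairs of groups. R26 CD44- libraries held 75.1, 95.4, 93.4 and 104 CPM, and R26 CD44+ libraries 44.7, 61.1, 59.8 and 59.1 CPM. OG CD44- libraries held 22.1, 21.0, 19.8 and 21.0 CPM and OG CD44+ libraries 9.52, 9.30, 11.3 and 10.9 CPM. No 2 of the 4 groups overlapped. OG cells were lower than R26 cells by 4.37-fold in CD44- (log2 fold change -2.13 ± 0.099, adjusted p = 4.32e-14) and 5.46-fold in CD44+ cells (log2 fold change -2.45 ± 0.11, adjusted p = 4.40e-14). CD44+ cells were below CD44- cells in OG (log2 fold change -1.03 ± 0.12, adjusted p = 4.42e-07) and in R26 (log2 fold change -0.71 ± 0.094, adjusted p = 3.88e-06). Whether the CD44 decrease differed between prefixes was not settled: the difference was -0.32 ± 0.15 (adjusted p = 0.133) without, and -0.32 (adjusted p = 0.0126) with the animal as a replicate block. It was also called without R26 CD44+ animal 8 with the factors kept (-0.42, adjusted p = 0.0192). AT2 marker sums, given above, were lower in the same order of groups, and their part in the result was not tested. Per kilobase, the log2 ratio of Cdh16 to Cdh1 went from -3.09 ± 0.20 in R26 CD44- to -3.59 ± 0.20 in R26 CD44+, -5.30 ± 0.079 in OG CD44- and -6.74 ± 0.17 in OG CD44+ cells (SD, n = 4).

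The closely related armadillo proteins beta-catenin and plakoglobin went apart. Ctnnb1 (gene 12387, chromosome 9, 120929216 to 120960507 in mm10) was at 1521, 1453, 1577 and 1537 CPM in R26 CD44- and 1165, 1196, 1296 and 1148 CPM in R26 CD44+ libraries. It was at 921, 917, 933 and 949 CPM in OG CD44- and 829, 848, 827 and 823 CPM in OG CD44+ libraries. All R26 values lay above all OG values, and the fractions of a prefix did not overlap. The decreases from R26 to OG were -0.71 ± 0.046 (adjusted p = 1.59e-12) in CD44- and -0.53 ± 0.046 (adjusted p = 3.74e-10) in CD44+ cells. With CD44 the level fell in R26 by 0.34 ± 0.046 (adjusted p = 2.62e-06) on the log2 scale. In OG it was -0.16 ± 0.046 (adjusted p = 0.00582), a call that was lost with upper quartile factors (-0.079, adjusted p = 0.146) and with OG CD44- animal 7 as TMM reference (-0.10, adjusted p = 0.0612). The difference between those CD44 effects was 0.18 ± 0.065 (adjusted p = 0.0464), and this call was lost without any 1 of 7 OG libraries, all but OG CD44+ animal 3 (adjusted p = 0.0565 to 0.0926), without both libraries of OG animal 3 (adjusted p = 0.0563) and without a filter on low counts (adjusted p = 0.0904). With the factors kept it was lost without any of these 7 OG libraries or any of 6 R26 libraries, all but R26 CD44- animal 7 and R26 CD44+ animal 2 (0.16 to 0.22, adjusted p = 0.00478 to 0.0902 over the 16 libraries). Ctnnb1 overlaps 4930593C16Rik and Ulk4 on the opposite strand, and the strand setting of the counts is not given in the sources used here.

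Jup (gene 16480, chromosome 11, 100368958 to 100397763 in mm10) was higher in OG cells. Its level was 306, 311, 334 and 317 CPM in R26 CD44- and 292, 308, 330.0 and 303 CPM in R26 CD44+ libraries, which overlapped at -0.041 ± 0.050 (adjusted p = 0.556). In OG it was 421, 401, 411 and 448 CPM in CD44- and 489, 497, 478 and 451 CPM in CD44+ libraries, above all R26 values and with the lowest CD44+ library, animal 3, just above the highest CD44- library, from the same animal. OG exceeded R26 by 0.41 ± 0.049 (adjusted p = 1.01e-07) in CD44- and 0.64 ± 0.050 (adjusted p = 4.69e-11) in CD44+ cells, and OG CD44+ exceeded OG CD44- cells by 0.19 ± 0.049 (adjusted p = 0.00261). The CD44 effects differed by 0.23 ± 0.070 (adjusted p = 0.0184), which was not called without OG CD44- animal 6 (0.21, adjusted p = 0.0514). The R26 difference was called lower with OG CD44- animal 7 as TMM reference (-0.14, adjusted p = 0.0188) and without R26 CD44+ animal 2 (-0.15, adjusted p = 0.00727), but not without any 1 of the 8 R26 libraries when the factors were kept (-0.074 to -0.015, adjusted p = 0.231 to 0.861). Per kilobase of exon Jup stayed below Ctnnb1 in every library, with a log2 ratio of -2.57 ± 0.041 in R26 CD44-, -2.27 ± 0.031 in R26 CD44+, -1.46 ± 0.051 in OG CD44- and -1.11 ± 0.049 in OG CD44+ cells (SD, n = 4). The ratios of no 2 groups overlapped, and Jup went from a mean of 5.95-fold to 2.15-fold below Ctnnb1.

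**Figure D3:**
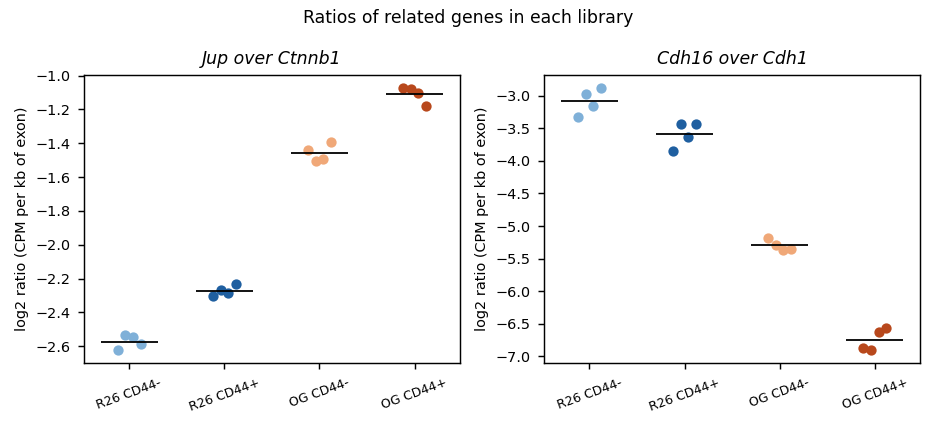
Log2 ratio of CPM per kilobase of exon in each library (y axes), Jup over Ctnnb1 at left and Cdh16 over Cdh1 at right, by group (x axes); points are libraries and lines the means of 4. The Jup to Ctnnb1 ratio rises in steps from -2.57 to -1.11, and the Cdh16 to Cdh1 ratio descends from -3.09 to -6.74.

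Of the desmosomal cadherins, Dsg2 (gene 13511, chromosome 18, 20558074 to 20604521 in mm10), the desmoglein of simple epithelia, was high mainly in OG CD44+ libraries. Its level was 21.2, 20.1, 23.0 and 21.5 CPM in R26 CD44-, 21.2, 22.8, 25.4 and 22.6 in R26 CD44+ and 22.3, 28.6, 26.6 and 26.8 in OG CD44- libraries, which overlapped one another. OG CD44+ libraries held 52.9, 51.6, 57.8 and 43.2 CPM, all above the other 12. The increase was 0.98 ± 0.085 (adjusted p = 2.40e-09) over OG CD44- and 1.16 ± 0.090 (adjusted p = 3.75e-11) over R26 CD44+ cells, against 0.10 ± 0.095 (adjusted p = 0.431) between the R26 fractions. The CD44 effect differed between prefixes by 0.88 ± 0.13 (adjusted p = 1.78e-05). OG CD44- exceeded R26 CD44- cells by 0.29 ± 0.090 (adjusted p = 0.00665) in the test while the groups overlapped. This call was lost without R26 CD44- animal 8, 7, 2 or 1 (adjusted p = 0.0564 to 0.170) with upper quartile factors (0.17, adjusted p = 0.0843) and with OG CD44- animal 7 as TMM reference (0.19, adjusted p = 0.0539). With the factors kept it held without any 1 of the 8 CD44- libraries (0.24 to 0.36, adjusted p = 0.00145 to 0.0366). Dsg2 overlaps the antisense gene Gm16090.

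Dsc2 (gene 13506, chromosome 18, 20030633 to 20059554 in mm10), the matching desmocollin, was close to the counting floor. R26 CD44- libraries held 2, 3, 4 and 0 counts, 9 in all, R26 CD44+ libraries 7, 5, 5 and 10, and OG CD44- libraries 11, 9, 8 and 10. OG CD44+ libraries held 38, 53, 49 and 32 counts, or 2.94, 4.40, 3.42 and 2.63 CPM, above every other library, where the highest was 0.935 CPM. A level of 3 counts corresponds to at most 0.333 CPM on library totals before TMM scaling. OG CD44+ cells exceeded OG CD44- cells by 2.52 ± 0.33 (adjusted p = 1.17e-06) and R26 CD44+ cells by 2.33 ± 0.35 (adjusted p = 2.86e-06). Dsc2 passed the filter on low counts through the OG CD44+ libraries, the group where it was highest. In fits of the R26 libraries alone or of the CD44- libraries alone it was not tested, so its calls are given as description only. The fitted differences from R26 CD44- rest on those 9 counts: 1.96 ± 0.53 (adjusted p = 0.00529) for R26 CD44+ and 1.76 ± 0.51 (adjusted p = 0.00390) for OG CD44-. The first of these was not called without both libraries of R26 animal 1 (1.31, adjusted p = 0.0608), a choice made after seeing the data. No difference between the CD44 effects was detectable at this depth, at 0.56 ± 0.74 (adjusted p = 0.628). Summed markers of ciliated cells, 8 genes, were also highest in OG CD44+ libraries: 1324 to 1710 CPM, against 951 to 993 in OG CD44-, 748 to 1084 in R26 CD44+ and 473 to 576 in R26 CD44- libraries. All 8 ciliated markers rose from OG CD44- to OG CD44+ cells, with a median log2 fold change of 1.54. So did all 8 club and secretory markers, with a median of 2.29: their sum was 642 to 764 CPM in OG CD44- and 1871 to 2577 in OG CD44+ libraries, and 565 to 1191 and 1835 to 3327 in those of R26. Of 8 AT1 markers 3 rose and 2 fell, with sums of 3469 to 3768 and 3269 to 3665 CPM in OG and 1504 to 1706 and 2054 to 2393 CPM in R26. The part of these cell types in the Dsc2 and Dsg2 results, and in those of Epcam, Cdh1, Jup and Dsp, which also rose in OG CD44+ cells, was not tested.

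The desmosomal plaque genes Dsp and Pkp2 were higher in OG than in R26 cells of both fractions. Dsp (gene 109620, chromosome 13, 38151294 to 38198577 in mm10), the keratin linker, was at 166, 151, 165 and 151 CPM in R26 CD44- and 160.1, 149, 187 and 166 CPM in R26 CD44+ libraries, which overlapped at 0.062 ± 0.060 (adjusted p = 0.449). It was at 244, 248, 239 and 261 CPM in OG CD44- and 306, 286, 289 and 269 CPM in OG CD44+ libraries, all above the R26 values. OG exceeded R26 by 0.65 ± 0.059 (adjusted p = 7.02e-10) in CD44- and 0.80 ± 0.059 (adjusted p = 1.91e-11) in CD44+ cells, and CD44+ exceeded CD44- cells in OG by 0.21 ± 0.058 (adjusted p = 0.00395). The R26 CD44 difference turned negative with OG CD44- animal 7 as reference (-0.037). It also did without R26 CD44+ animal 2 or 1 or R26 CD44- animal 7 or 1 (-0.077 to -0.0077, adjusted p = 0.217 to 0.936), and with the factors kept only without R26 CD44+ animal 2 (-0.0012). The CD44 effects of the prefixes differed by 0.15 ± 0.083 (adjusted p = 0.203), which missed the threshold. It was called with OG CD44- animal 7 as reference (0.30, adjusted p = 0.00717) and without any 1 of the 8 R26 libraries (0.22 to 0.34, adjusted p = 5.06e-04 to 0.0408). With the factors kept it was called only without R26 CD44+ animal 2 (0.21, adjusted p = 0.0280), the library with the highest R26 level. Dsp overlaps Gm10129 on the opposite strand.

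Pkp2 (gene 67451, chromosome 16, 16213318 to 16272712 in mm10), a plakophilin that gathers desmosomal proteins at the membrane, was at 61.1, 56.5, 64.1 and 56.4 CPM in R26 CD44- and 62.5, 60.2, 60.9 and 50.6 CPM in R26 CD44+ libraries. OG CD44- libraries held 72.5, 76.6, 74.9 and 81.9 CPM and OG CD44+ libraries 81.3, 90.1, 83.0 and 73.2 CPM. The fractions overlapped under both prefixes, while every OG value lay above every R26 value. OG exceeded R26 cells by 0.36 ± 0.068 (adjusted p = 5.39e-05) in CD44- and 0.48 ± 0.070 (adjusted p = 1.53e-06) in CD44+ cells. With CD44 the difference was -0.023 ± 0.071 (adjusted p = 0.83) in R26 and 0.099 ± 0.067 (adjusted p = 0.233) in OG. The OG value was called with upper quartile factors (0.18, adjusted p = 0.0285), by voom, in a fit of the 8 OG libraries alone (0.16, adjusted p = 0.0112) and without both libraries of OG animal 3 (0.18, adjusted p = 0.0479). The difference between CD44 effects was 0.12 ± 0.098 (adjusted p = 0.401), and was called with OG CD44- animal 7 as reference (0.28, adjusted p = 0.0331) and without R26 CD44+ animal 8 (0.28) or 2 (0.26), but in none of the 16 fits with 1 library left out and the factors kept (0.057 to 0.17, adjusted p = 0.201 to 0.704).

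**Figure D4:**
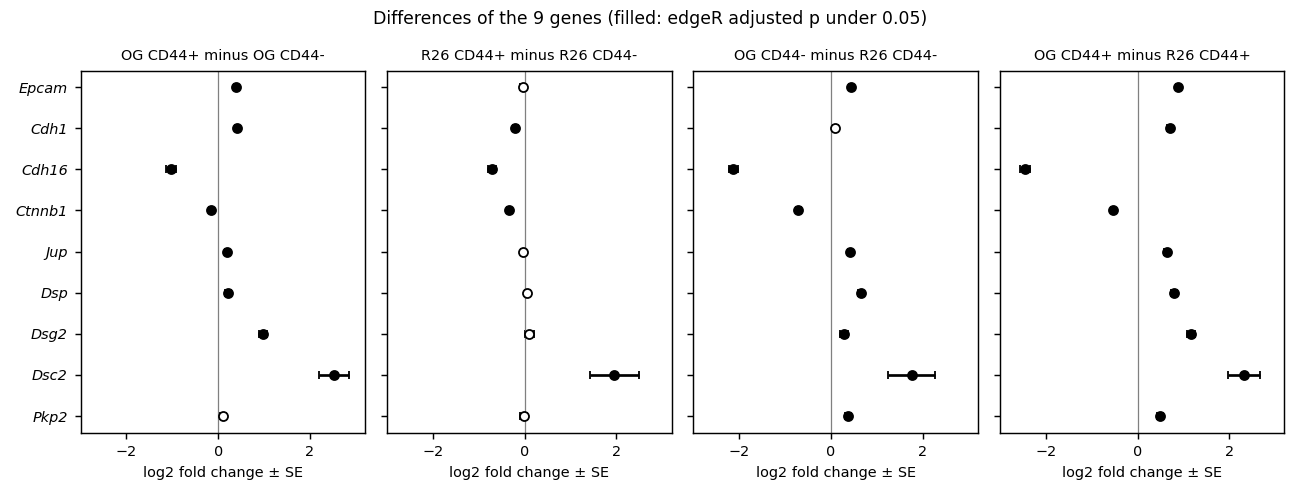
Log2 fold change ± SE from edgeR (x axes) of the 9 genes (y axis) in 4 comparisons of 4 libraries each; filled points have an adjusted p under 0.05. Cdh16 and Ctnnb1 lie left of 0 in all panels, and the other 7 genes lie right of 0 in the comparison of OG CD44+ with R26 CD44+ cells.

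Other desmosome genes were mostly not expressed at a testable level: of 14 listed, 6 were tested. In OG CD44+ against CD44- cells, of 6 genes tested, 2 rose and 1 fell, with a median log2 fold change of 0.011. In R26, of 6 genes tested, 1 rose and 1 fell, with a median log2 fold change of -0.12. Of all genes tested, 50.4% were called in OG and 37.1% in R26. Evpl, which encodes envoplakin of the plakin family, rose with CD44 in OG by 0.86 ± 0.11 and in R26 by 0.50 ± 0.12, while Perp, a desmosomal membrane protein, was at 0.34 ± 0.080 in OG, where it rose, and at -0.036 ± 0.089 (adjusted p = 0.786) in R26. The R26 count of genes that fell ran from 0 to 3 over the alternatives and changed without any 1 of the 8 R26 libraries. Between the CD44- fractions, of 6 genes tested, 4 rose and 2 fell, with a median log2 fold change of 0.67, and between the CD44+ fractions, of 6 genes tested, 4 rose and 1 fell, with a median log2 fold change of 1.03, where 69.0% and 69.1% of all genes were called. Pkp3 was higher in OG by 1.42 ± 0.059 in CD44- and 1.51 ± 0.062 in CD44+ cells, from 30.5 ± 2.96 and 27.3 ± 1.03 CPM to 82.0 ± 1.87 and 77.7 ± 0.728 CPM (SD, n = 4). Pkp4, by contrast, was lower by -0.87 ± 0.078 and -1.10 ± 0.080. The plakophilins measured therefore changed unequally: Pkp2 and Pkp3 were higher and Pkp4 lower in OG cells of both fractions. Cdsn, a corneodesmosome gene, was at 1.16 ± 0.582 CPM in R26 CD44- and 11.6 ± 1.06 CPM in OG CD44- cells.

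Partners of the cadherins went in both directions. In OG CD44+ against CD44- cells, of 16 genes tested, 6 rose and 4 fell, with a median log2 fold change of 0.069, and in R26, of 16 genes tested, 2 rose and 7 fell, with a median log2 fold change of -0.054. Of all genes tested, 50.4% were called in OG and 37.1% in R26. The R26 count that rose ran from 1 to 4 over the alternatives. It changed by over 1.5 times without any 1 of the R26 libraries except CD44+ animal 2, and without that library when the factors were kept. Ctnnd1, p120-catenin, which binds the membrane-near part of the E-cadherin tail, rose in OG by 0.43 ± 0.045 and was at -0.026 ± 0.046 (adjusted p = 0.689) in R26, and the difference between the CD44 effects was 0.45 ± 0.065 (adjusted p = 1.35e-05). Nectin4, an adhesion receptor of the nectin family, rose with CD44 in OG by 0.47 ± 0.059, and Ctnnd2 and Camsap3 fell, by 1.01 ± 0.12 and 0.51 ± 0.061. In R26, the actin linker Vcl rose by 0.43 ± 0.047, and Nectin1, Nectin2 and Ctnnal1 fell by 0.42 ± 0.057, 0.32 ± 0.054 and 0.44 ± 0.090. Between the prefixes, of 16 genes tested, 6 rose and 8 fell, with a median log2 fold change of -0.21 in CD44- cells, and of 16 genes tested, 6 rose and 8 fell, with a median log2 fold change of -0.11 in CD44+ cells. Of all genes tested, 69.0% were called between the CD44- and 69.1% between the CD44+ fractions. Vcl was higher in OG by 1.38 ± 0.047 and 0.96 ± 0.047, and Ctnnd1 by 0.42 ± 0.046 and 0.87 ± 0.046. Nectin1 was lower in OG by -1.01 ± 0.058 and -1.04 ± 0.059, as was Ctnnd2 by -1.40 ± 0.10 and -1.94 ± 0.12.

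Of the genes that work with EPCAM, 10 of 12 were called higher in OG cells of either fraction. Between the CD44- fractions, of 12 genes tested, 10 rose and 1 fell, with a median log2 fold change of 0.34, where 69.0% of all genes were called (39.4% higher). Between the CD44+ fractions, of 12 genes tested, 10 rose and 0 fell, with a median log2 fold change of 0.75, where 69.1% of all genes were called (34.5% higher). The count lower in OG CD44- cells ran from 0 to 2 over the alternatives, and changed without OG CD44- animal 5 or any 1 of the R26 CD44- libraries. Adam10, which encodes a sheddase, was higher in OG by 1.47 ± 0.054 in CD44- and 1.44 ± 0.054 in CD44+ cells, and the tetraspanin gene Tspan8 by 1.47 ± 0.058 and 1.62 ± 0.059. Spint2, an inhibitor of membrane serine proteases, was lower in OG CD44- cells, by -0.15 ± 0.053 (adjusted p = 0.0154). In OG CD44+ against CD44- cells, of 12 genes tested, 7 rose and 2 fell, with a median log2 fold change of 0.20, led by St14, which encodes matriptase, a protease that cleaves EPCAM, at 0.47 ± 0.044 (adjusted p = 9.01e-09). In R26, of 12 genes tested, 2 rose and 3 fell, with a median log2 fold change of -0.071. Cldn7, which encodes claudin-7, fell there by 0.15 ± 0.056. Over all genes tested, the shares called with CD44 were 50.4% in OG (22.3% higher, 28.0% lower) and 37.1% in R26 (21.6% higher, 15.4% lower). The counts among the 12 genes moved with the scaling and the libraries kept. In R26 1 to 3 genes rose and 2 to 7 fell over the alternatives, with changes without any 1 of the 8 R26 libraries. In OG 0 to 2 fell, with changes without OG CD44- animal 6 or 3 or OG CD44+ animal 6, 5 or 3.

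Of 15 other cadherin genes listed, 7 were tested, among them markers of cells that the gates exclude. In OG CD44+ against CD44- cells, of 7 genes tested, 4 rose and 1 fell, with a median log2 fold change of 0.69, and in R26, of 7 genes tested, 4 rose and 0 fell, with a median log2 fold change of 0.92. Without OG CD44- animal 6, 2 in place of 4 rose in OG, and without a filter on low counts 6 rose in OG and 7 in R26. Of all genes tested, 50.4% were called in OG and 37.1% in R26. P-cadherin, Cdh3, an epithelial cadherin, ran from 0.499 to 1.69 CPM in R26 CD44- and 0.712 to 3.14 in R26 CD44+ libraries, and from 4.93 to 6.75 in OG CD44- and 8.29 to 10.3 in OG CD44+ libraries. The mesenchymal cadherin Cdh11 had, in CD44- and CD44+ libraries, 5.74 to 7.74 and 31.3 to 62.4 CPM in R26 and 17.9 to 18.6 and 41.1 to 92.5 CPM in OG. The endothelial Cdh5 had, in the same order, 2.32 to 4.66 and 19.1 to 25.1 CPM in R26 and 6.26 to 7.84 and 1.63 to 3.86 CPM in OG. Cdh11 rose with CD44 in both prefixes (1.57 ± 0.28 in OG, 2.65 ± 0.33 in R26), and Cdh5 rose in R26 (2.81 ± 0.19) and fell in OG (-1.47 ± 0.21). Beside these, the summed level of 8 fibroblast and mural markers was 118 to 155 CPM in R26 CD44-, 817 to 1793 in R26 CD44+, 824 to 893 in OG CD44- and 1892 to 3388 in OG CD44+ libraries. The sum of 8 endothelial markers was 126 to 144 CPM in CD44- and 176 to 194 in CD44+ libraries of R26, and 176 to 187 and 105 to 117 in those of OG. Of 7 endothelial markers tested, 6 rose and 1 fell with CD44 in R26, with a median log2 fold change of 2.21. In OG 0 rose and 4 fell, with a median of -0.73. The part of these markers' cells in the cadherin results was not tested. Cdh2, N-cadherin, did not pass the filter and held 10 to 43 counts per group.

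Regulators known to maintain or repress junction genes, most of them transcription factors, were called in both directions in all 4 comparisons. In OG CD44+ against CD44- cells, of 17 genes tested, 6 rose and 4 fell, with a median log2 fold change of 0.13, and in R26, of 17 genes tested, 5 rose and 4 fell, with a median log2 fold change of -0.062, where 50.4% and 37.1% of all genes were called. The R26 count that fell ran from 2 to 7 over the alternatives, and changed by over 1.5 times without R26 CD44- animal 8 or 1 or R26 CD44+ animal 7, in a fit of the R26 libraries alone and with OG CD44- animal 7 as TMM reference. Zeb2 and Zeb1, repressors of Cdh1, rose with CD44 in OG by 1.30 ± 0.18 and 0.68 ± 0.16 and in R26 by 2.93 ± 0.20 and 1.76 ± 0.17. The fibroblast and mural sums just given rose in the same libraries, as did the sum of 7 leukocyte markers other than Lyz2, from 37.5 to 44.6 to 175 to 436 CPM in OG and from 20.9 to 26.6 to 195 to 349.9 CPM in R26. With Lyz2 the sum of all 8 was lower in OG CD44+ than in OG CD44- libraries, at 1224 to 1546 against 4957 to 5662 CPM. In R26 it was 16591 to 23953 against 22956 to 27969 CPM, with overlap. Of the 8 leukocyte markers 7 were tested: 4 rose and 2 fell in OG, and 5 rose and 1 fell in R26. The part of these cells in the Zeb1 and Zeb2 results, and of Zeb1 and Zeb2 in those of Cdh1, was not tested. Between the CD44- fractions, of 17 genes tested, 7 rose and 6 fell, with a median log2 fold change of 0.11, and between the CD44+ fractions, of 17 genes tested, 4 rose and 4 fell, with a median log2 fold change of -0.088, where 69.0% and 69.1% of all genes were called. Elf3, an epithelial ETS factor, was lower in OG by -1.38 ± 0.054 and -0.87 ± 0.055, and Foxa1 by -0.74 ± 0.061 and -0.70 ± 0.063. The splicing regulator Esrp1 was higher by 0.43 ± 0.053 and 0.46 ± 0.055. Grhl2, a grainyhead-like activator of Cdh1, was lower in OG, by -0.47 ± 0.057 in CD44+ cells. With upper quartile factors 2 in place of 4 of these genes fell with CD44 in OG, and 7 in place of 4 were lower in OG CD44+ than in R26 CD44+ cells.

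**Figure D5:**
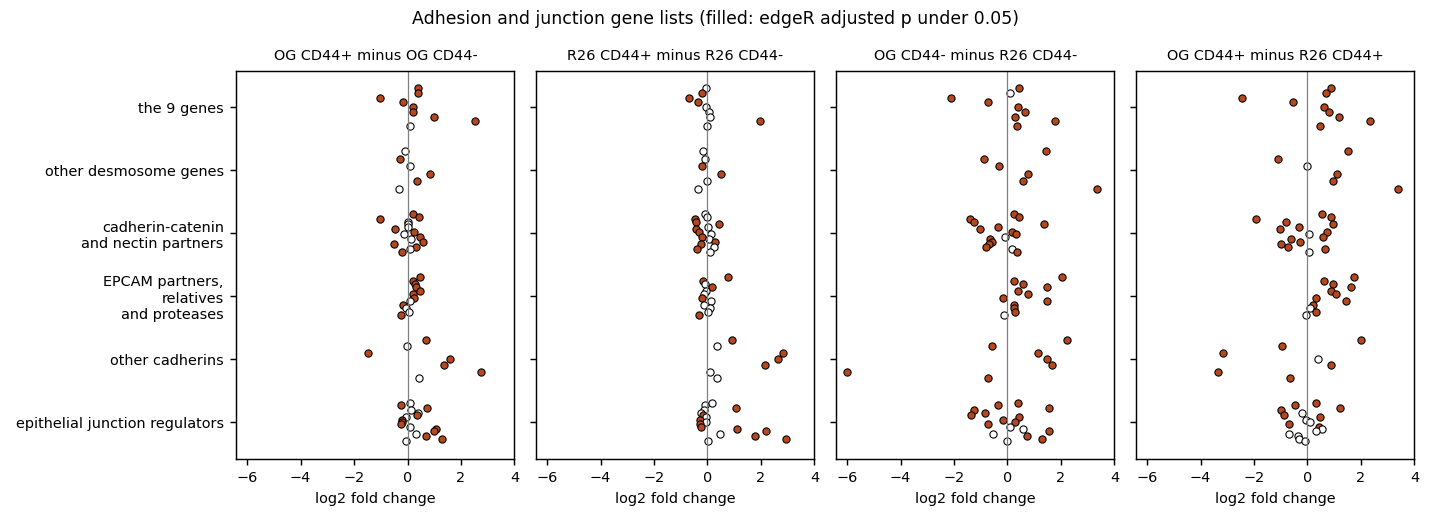
Log2 fold change from edgeR (x axes) of the tested genes of 6 lists (y axis) in 4 comparisons; filled points have an adjusted p under 0.05. In the OG against R26 panels most points of the EPCAM list lie right of 0, and points of the cadherin partner and regulator lists lie on both sides.

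Over the 16 libraries the members fell into opposing sets. The Pearson correlation of log2 CPM was 0.976 between Epcam and Jup, 0.945 between Epcam and Dsp and 0.976 between Jup and Dsp. It was 0.968 between Cdh16 and Ctnnb1, and -0.939 between Epcam and Cdh16. These values describe 4 groups that differ in level and share sort and sequencing, and they carry no test. Among 14014 named genes, those most like Epcam were Cd81 (0.992), Ctnnd1 (0.991) and Lamb3 (0.991). For Cdh1 they were Sdc1 (0.985) and Fam210b (0.969), for Cdh16 Fem1c (0.994), H2-Ab1 (0.994) and Rab27b (0.993) and for Ctnnb1 Sort1 (0.994), Ptgfrn (0.993) and Slc31a1 (0.991). The genes most like Jup were Syngr2 (0.992), Tapbp (0.991) and Cldn18 (0.990), and those most like Dsp Igf2r (0.990), Dpp3 (0.987) and Psca (0.985). Dsg2 was most like Igkv12-89 (0.975), Slc9a2 (0.970) and Gpc4 (0.966). Dsc2 was most like Azgp1 (0.976), Spag17 (0.969) and Ttc29 (0.964), and Pkp2 Sccpdh (0.949), Enoph1 (0.946) and Eps8l2 (0.946). Ctnnd1, among the genes most like Epcam, is also on the list of cadherin partners above.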

How the data were processed

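RNA was measured in 16 libraries of sorted AT2 cells, whose strand-specific preparation from total RNA depleted of rRNA is stated per the labels' protocols. The deposited values are raw counts per gene, whole numbers without normalization. The submitters' processing notes name Bowtie2 and mm10; the counting program, annotation and strand setting are not given in the sources used here. All 16 columns of counts were used and 0 were left out. Columns were put in groups by the CD44 sign and the prefix in their names. Identifiers were matched to symbols through the RefSeq gene table for 25275 of 27179 (93.0%); exon lengths are unions of GENCODE M21 exons. Promoters are from RefSeq (GRCm38.p6).

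Tests used R 4.3.3 and edgeR 4.0.16 (filterByExpr, TMM, robust quasi-likelihood F test, 1 mean per group, Benjamini-Hochberg adjusted p under 0.05 over all genes). The SE is the log2 fold change divided by the square root of F. Correlations used log2 CPM with a prior count of 2. The code was tested on simulated data. Alternatives were DESeq2 1.42.0, limma 3.58.1 voom, other scalings and filters, a replicate block and left-out libraries, the last also with all-library scaling factors kept. The members and gene lists were chosen with earlier results of these data known. All 9 members were named, with up to 4 genes of smallest adjusted p per list and comparison, up to 2 called the other way, and the 3 genes most like each member; not all are printed, and some are not reported here.

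CD44- and CD44+ columns with the same number were taken as 1 animal, since the labels give 4 lungs of each genotype for the 8 libraries. Deviations from the group means correlated at 0.020 to 0.24 within the 8 pairs, with a mean of 0.12. The mean was -0.040 between other animals of a prefix. Centring on the group means ties this value to the mean within pairs, so it is no separate check of the pairing. The limit of 3 counts covers counting error alone, as no molecular identifiers are named.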

Additional observations from a re-analysis of the deposited data

Results flagged for a closer look

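In 3 of 36 groups of 4 libraries, 1 library stood far from the others; chance flags about 1 in 20 groups. Cdh1 was at 1006 CPM in R26 CD44- animal 2, above the others of its group. It was at 1248 CPM in OG CD44+ animal 3, below the other 3, and Cdh16 was at 44.7 CPM in R26 CD44+ animal 8, the lowest of its group. Without OG CD44+ animal 3 the OG CD44 difference of Cdh1 was 0.43, and without R26 CD44+ animal 8 the R26 CD44 difference of Cdh16 was -0.61 with the scaling factors of all libraries kept and -0.69 with the TMM reference that this removal brings.

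The CD44+ minus CD44- difference was tested between the prefixes, and 5 of the 9 genes differed by edgeR. The OG difference lay above the R26 difference for Epcam by 0.44, Cdh1 by 0.62, Ctnnb1 by 0.18, Jup by 0.23 and Dsg2 by 0.88 log2 units. Ctnnb1 fell with CD44 under both prefixes, less in OG (-0.16) than in R26 (-0.34). Its call was lost in 22 of 42 alternatives, and that of Jup in 1. For Epcam, Cdh1 and Dsg2 the difference kept its sign and its call in all alternatives tried (42 each). Cdh1 is the member called in opposite directions under the prefixes in the main fit. Its level went down in 4 of 4 R26 animals and up in 4 of 4 OG animals. Jup had the same signs within animals, at -0.066 to -0.016 in R26 and 0.0086 to 0.31 in OG. Its R26 difference was not called by edgeR in the main fit (-0.041, adjusted p = 0.556). With OG CD44- animal 7 as TMM reference Epcam and Jup were also called lower with CD44 in R26 and higher in OG.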

How the results depend on the processing

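Over all alternatives, 1223 values of member fold changes kept direction and call, 33 lost and 30 gained a call, and 21 changed sign, none of them called on either side. Of these, Cdh1 between the CD44- fractions was -0.029, -0.0087, -0.0011 and -0.032 (-0.032 to 0.12 with 1 library left out). Between the R26 fractions Pkp2 was 0.0040, 0.010 and 0.0027 (-0.13 to 0.041 with 1 left out), Dsp -0.037 and -0.030 (-0.077 to 0.11) and Dsg2 -0.021 to 0.14 with 1 left out. In 8 of 16 fits a left-out library changed the TMM reference. Leaving out 1 library gave 6 members higher and 2 lower in OG CD44+ against CD44-, 1 and 3 to 5 in R26, 5 to 7 and 2 between CD44- and 7 and 2 between CD44+ fractions, and 3 to 7 and 0 to 1 for the difference of CD44 effects. With upper quartile factors or OG CD44- animal 7 as TMM reference 1 member in place of 2 was lower in OG CD44+ against CD44-, and with that reference 5 in place of 3 were lower in R26. In R26 0 members were higher, in place of 1 (Dsc2), with at least 50 counts in 4 libraries, and in a fit of the R26 libraries alone, where Dsc2 was not tested, and without both libraries of R26 animal 1. With the animal as replicate block 1 member, Cdh16, was lower in the difference of CD44 effects, in place of 0; the block changed no other member's call. Other causes were not tested. Depth limits Dsc2, at 9 counts in R26 CD44- cells; the other 8 members had at least 112 counts in every library.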

Other observations

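Desmosome genes of stratified epithelium had their highest counts in 1 library. R26 CD44+ animal 1 held 47 counts of Dsc3 (4.39 CPM), 29 of Dsg3 (2.71 CPM) and 76 of Pkp1 (7.11 CPM). The other 15 libraries held 0 to 3 counts of Dsc3, 0 to 1 of Dsg3 and 0 to 6 of Pkp1. Krt5, a keratin of basal cells, had 367 counts (34.3 CPM) in the same library and 0 to 9 in the other 15. The CD44- library of the same animal held 9 counts of Krt5, 3 of Pkp1, 1 of Dsg3 and 0 of Dsc3. These genes did not pass the filter on low counts, and they were singled out after their values were seen.

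Cdh17, another cadherin with a short tail, was detected in R26 cells at 86 counts in all over the CD44- and 70 over the CD44+ libraries, and in OG cells at 1 and 8 counts. Its level was 1.56 ± 0.242 and 1.65 ± 1.15 CPM in R26 CD44- and CD44+ cells (SD, n = 4). Cdh17 was called lower in OG cells of both fractions by edgeR (adjusted p = 1.00e-07 in CD44- and 9.36e-06 in CD44+ cells). It passed the filter on low counts through the R26 libraries, where it was high, so these calls are given as description only.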
